A study of Mus musculus with 9 samples.

Results

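The extracellular matrix of brown fat holds, beside collagens, a set of glycoproteins and proteoglycans that link fibres, growth factors and cells, and 41 genes of this kind were followed here in brown adipose tissue of obese mice given cotadutide or vehicle. The members were the rows whose Ensembl identifier mapped to the symbol of 1 of the 41 genes, out of 49315 genes listed. The choice went by what the genes encode, but earlier results of these data were known when it was made. They fall into 3 interstitial glycoproteins (Fn1, Matn2, Ecm1), 9 matricellular proteins (Sparc, Sparcl1, Postn, Thbs1, Thbs2, Thbs3, Thbs4, Tnc, Tnxb), 6 small leucine-rich proteoglycans (Bgn, Dcn, Lum, Fmod, Ogn, Prelp), the large proteoglycan Vcan, 12 elastic fibre and microfibril genes (Eln, Fbn1, Fbn2, Fbln1, Fbln2, Fbln5, Efemp1, Efemp2, Mfap2, Mfap4, Mfap5, Emilin1) and 10 basement membrane genes (Lama2, Lama4, Lama5, Lamb1, Lamb2, Lamc1, Nid1, Nid2, Hspg2, Agrn).

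Interstitial matrix is laid down mostly by fibroblasts, whereas fat cells, endothelial cells and muscle fibres each sit on a basement membrane of laminins, nidogens and heparan sulfate proteoglycans that they help to make. Microfibrils of fibrillin carry elastin and hold latent growth factors, and small leucine-rich proteoglycans bind collagen fibrils and set their spacing. Matricellular proteins are not load-bearing and act mainly on cells, and several of them are raised in injured or expanding tissue.

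The cotadutide group was 5 mice that received cotadutide, a peptide agonist of the GLP-1 and glucagon receptors, by daily subcutaneous injection for 28 days, and the vehicle group was 4 mice injected with vehicle in the same way. All 9 were male C57Bl/6J mice with diet-induced obesity, 14 weeks old, acclimated for 3 weeks, housed singly, not at thermoneutrality, and fed a 60% high fat diet until they weighed about 50 g. The dose is not given in the sources used here. Polyadenylated RNA came from 30 mg of whole tissue per mouse, and mouse numbers only name separate animals.

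Total counts were 15.9 ± 3.58 M (M, mega; SD, n = 5, from 10.8 to 19.5) in the cotadutide libraries and 20.8 ± 4.05 M (n = 4, from 16.1 to 25.1) in the vehicle libraries. The brown fat marker Ucp1, the uncoupling protein, stood at 5886 ± 759 CPM (counts per M counts of the library) in the cotadutide libraries and 4781 ± 961 CPM in the vehicle libraries. The members took 0.287 ± 0.0333% of all counts in the cotadutide libraries and 0.412 ± 0.0688% in the vehicle libraries. CPM rest on library sizes with TMM factors (trimmed mean of M values), and a call is a Benjamini-Hochberg adjusted p under 0.05 over the 14747 genes tested with edgeR's quasi-likelihood test. The 1373 genes called higher and 1378 called lower are 18.7% of those tested.

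Of the 41 members, 40 passed the filter on low counts, and of these 14 fell, 1 rose and 25 were not called. The 14 that fell are 35% of the members tested, beside 9.34% of all tested genes called lower, and the single one that rose stands beside 9.31% of all tested genes called higher. The log2 fold change, cotadutide over vehicle, was below zero in 35 of the 40, with a median of -0.49 against 0.00 over all tested genes and a range of -1.78 (Thbs4) to 0.39 (Lamb1). Called decreases were moderate, from 1.34 times lower (Lamb2) to 3.43 times lower (Thbs4), and 3 of them (Thbs4, Tnc and Fn1) reached 2-fold. Every cotadutide library lay below every vehicle library for 4 members (Tnc, Bgn, Fbn1 and Sparcl1), beside 7.79% of all tested genes, and for no member did every cotadutide library lie above, beside 8.06%. The summed CPM of skeletal muscle markers was also lower in every cotadutide library than in any vehicle library. With a muscle score in the fit edgeR called no member, and none of the 14747 genes tested. Of the members 13, and of all tested genes 2214, had an unadjusted p under 0.05 by edgeR. In whole tissue, fewer cells of a type and less RNA per cell cannot be told apart.

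**Figure D1:**
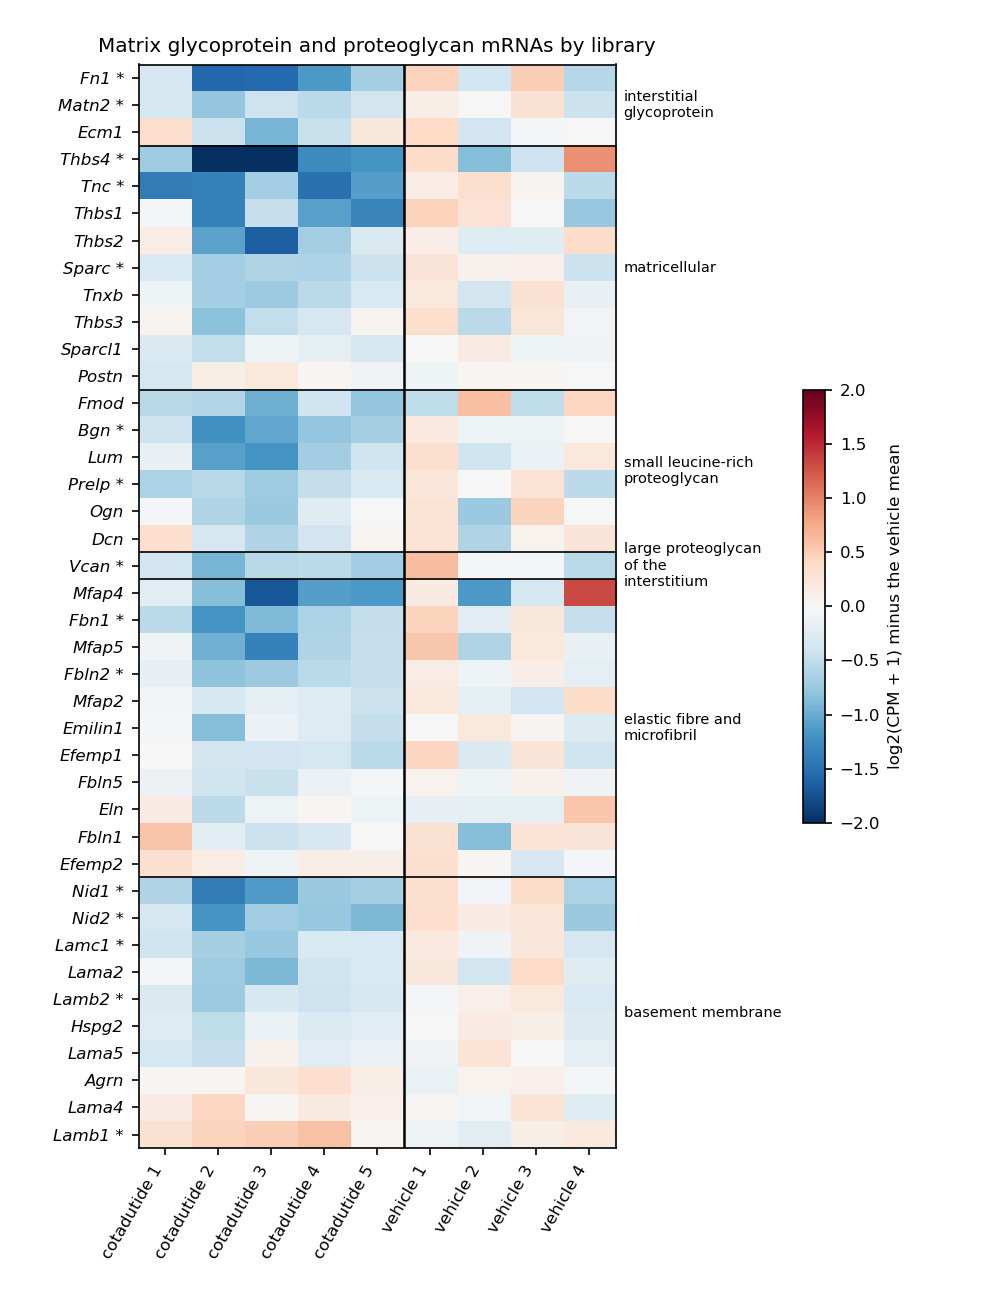
Each row is 1 of the 40 tested members and each column 1 mouse. Colour is log2(CPM + 1) minus the mean of the vehicle mice, blue for lower and red for higher, with the scale limited to -2 and 2. An asterisk marks an adjusted p under 0.05. Blue prevails in cotadutide mice 2 to 5, while cotadutide mouse 1 is paler, and vehicle mouse 4 is the bluest vehicle column in most of the called rows.

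**Figure D2:**
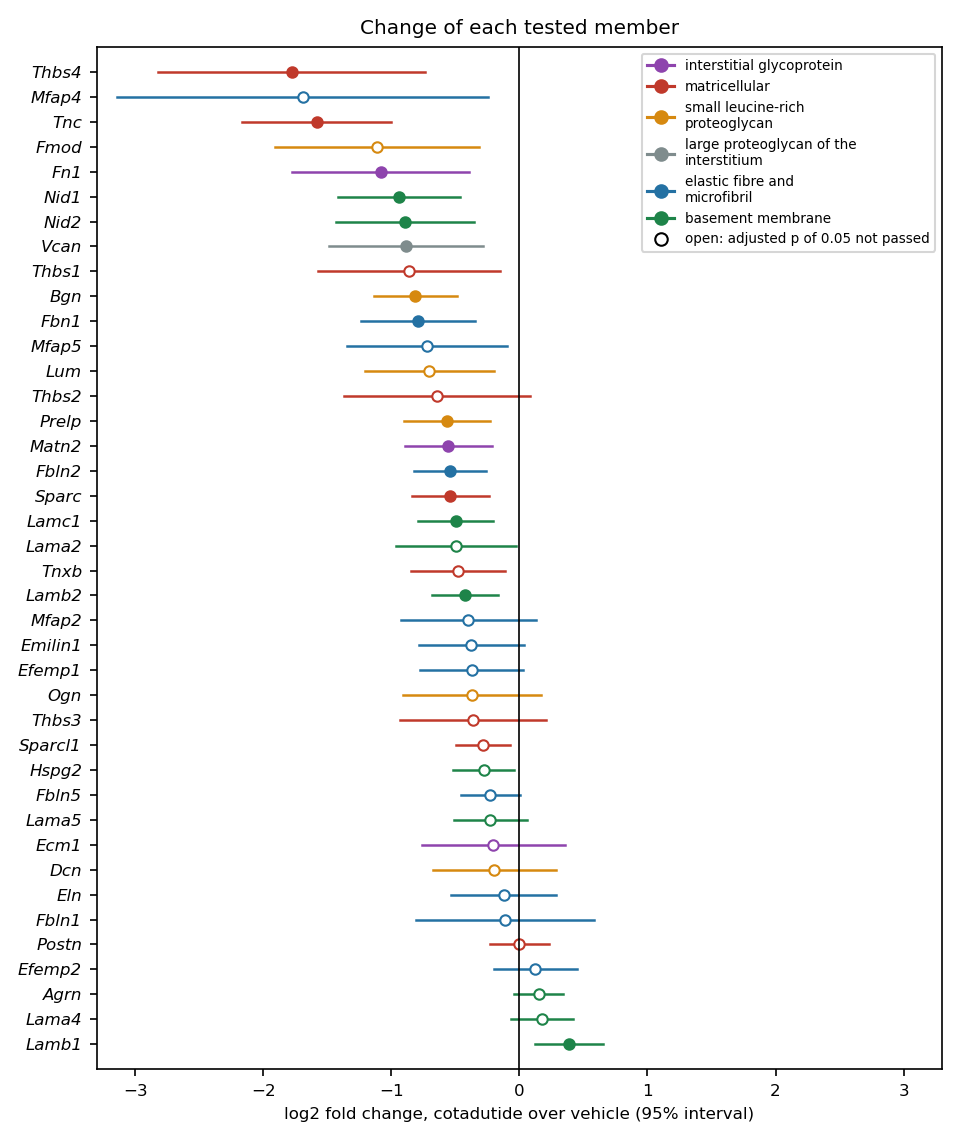
Log2 fold change of each tested member, cotadutide over vehicle, with its 95% interval as a line, coloured by role and sorted. Filled circles passed the adjusted p of 0.05. The members run from -1.78 (Thbs4) to 0.39 (Lamb1), and 35 of 40 circles lie left of zero.

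The number of members that fell rested on single libraries. It was 2 without cotadutide mouse 2, 6 without cotadutide mouse 3 and 9 without cotadutide mouse 4, and leaving out vehicle mouse 1, 2 or 3 in turn left 1, 2 and 2. Leaving out cotadutide mouse 1, cotadutide mouse 5 or vehicle mouse 4 gave 20, 14 and 15. The share of all tested genes called in either direction, 18.7% in all 9 libraries, was 19.7%, 16.4% and 24.9% in these 3 fits. Genes called lower numbered 1724, 1389 and 1588 there, against 1378 in all 9 libraries. The share in either direction shrank to 5.55%, 9.35% and 14.8% without cotadutide mice 2, 3 and 4 in turn. Without vehicle mice 1, 2 and 3 in turn it was 0.938%, 0.992% and 4.95%. Genes called lower numbered 349, 818 and 1088 without these cotadutide mice, and 92, 105 and 473 without these vehicle mice. The fits that left out a mouse tested 14445 to 14923 genes. In all 9 of these fits 34 to 36 of the 40 log2 fold changes stayed below zero. Tnc passed in all 9 and Bgn in 8, missing it without vehicle mouse 1 (edgeR adjusted p = 0.0518). Every other called member missed the threshold in each of the fits that left out cotadutide mouse 2 or 1 of the first 3 vehicle mice.

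Promoter sequences are shown for Tnc and Bgn, which held their calls best, for Nid1, the basement membrane member with the largest decrease, and for Lamb1, the member that rose. Each run is the 250 bases before the RefSeq start of the gene in GRCm38.p6 (for Tnc the first of 2 entries), 5′ to 3′ on the gene's strand. Capitals mark matches, on either strand, to any of 5 short motifs. The TATA box was searched for as TATAAA. The CCAAT box, bound by the factor NF-Y, was searched for under its own letters. The GC box of the Sp1 family was searched for as GGGCGG. Sites of AP-1, the Fos and Jun factors, were searched for as TGANTCA with any base at N. Sites of TEAD factors, the partners of Yap, were searched for as GGAATG. The Tnc window is chr4:64047016-64047265 on the minus strand, that of Bgn chrX:73483351-73483600 on the plus strand, that of Nid1 chr13:13437352-13437601 on the plus strand and that of Lamb1 chr12:31265043-31265292 on the plus strand.
Tnc: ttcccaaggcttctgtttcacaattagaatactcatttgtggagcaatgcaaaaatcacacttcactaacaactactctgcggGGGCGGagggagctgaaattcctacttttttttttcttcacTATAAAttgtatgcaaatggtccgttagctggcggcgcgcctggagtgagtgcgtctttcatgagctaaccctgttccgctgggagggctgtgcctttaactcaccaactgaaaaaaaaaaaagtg
Bgn: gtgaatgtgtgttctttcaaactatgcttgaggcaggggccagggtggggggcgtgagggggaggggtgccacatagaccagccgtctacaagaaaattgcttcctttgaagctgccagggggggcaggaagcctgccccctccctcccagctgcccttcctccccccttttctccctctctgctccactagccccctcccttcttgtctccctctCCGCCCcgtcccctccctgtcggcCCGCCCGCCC
Nid1: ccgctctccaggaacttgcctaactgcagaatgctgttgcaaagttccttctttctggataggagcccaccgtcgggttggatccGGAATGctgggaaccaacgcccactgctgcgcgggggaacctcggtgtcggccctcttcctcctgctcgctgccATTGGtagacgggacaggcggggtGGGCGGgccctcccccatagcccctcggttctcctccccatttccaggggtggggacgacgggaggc
Lamb1: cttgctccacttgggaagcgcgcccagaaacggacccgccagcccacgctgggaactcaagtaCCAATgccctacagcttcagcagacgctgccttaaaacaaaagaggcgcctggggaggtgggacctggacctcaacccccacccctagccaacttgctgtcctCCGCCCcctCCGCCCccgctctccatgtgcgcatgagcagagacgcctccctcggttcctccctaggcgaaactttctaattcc
The Tnc window held a GC box and a TATA box ending 120 bases before the start, and was 44.8% G and C. The Bgn window had GC boxes on the opposite strand, the last of them ending at the start itself, and no match to the other motifs. The windows of Nid1 and Lamb1 each held a CCAAT box and at least 1 GC box, and that of Nid1 also a TEAD site. Of the 41 members, 28 were matched to a RefSeq promoter. A GC box was present in 18 of them (64.3%), beside 35.4% of 27025 genes in the RefSeq table, a gene being counted once where any of its windows held the motif. A TATA box was present in 5 (17.9%, beside 14.3%), a CCAAT box in 8 (28.6%, beside 37.5%), an AP-1 site in 3 (10.7%, beside 7.82%) and a TEAD site in 4 (14.3%, beside 14.4%). The median G and C content of the first window of each gene was 58.8% over the members and 52% over all genes. The comparison genes were not limited to the 14747 tested in this tissue, so these shares cannot single out matrix genes. None of the motifs searched contains another, and these are matches of letters, not sites known to be bound.

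Levels between members are compared per kilobase of exon. Sparc was the most abundant in both groups, at 277.6 CPM per kilobase in the cotadutide libraries and 403.6 in the vehicle libraries, and Prelp, Dcn and Sparcl1 followed it in that order in both. In summed CPM, without correction for length, Sparc alone made 35.8% of the 41 members in the cotadutide libraries and 38% in the vehicle libraries, and Prelp 12.8% and 13.7%. Vcan, at 0.151 CPM per kilobase in the cotadutide libraries and 0.279 in the vehicle libraries, and Fbn2 were the lowest. Thbs4 ranked 33 of 41 in the cotadutide libraries and 21 in the vehicle libraries, and Lamb1 ranked 9 and 17.

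Of the interstitial glycoproteins, Fn1 and Matn2 fell and Ecm1 was not called. Fn1 encodes fibronectin, which cells bind through integrins and assemble into fibrils. It had 35.8, 14.6, 14.7, 19.9 and 28.4 CPM in cotadutide mice 1 to 5, against 63.2, 34.4, 64.6 and 30.1 CPM in vehicle mice 1 to 4. The groups overlapped, since cotadutide mouse 1 was above vehicle mice 2 and 4. Fn1 was 2.12 times lower, a log2 fold change of -1.08 (SE 0.31, 95% interval -1.77 to -0.39, edgeR adjusted p = 0.0382). Matn2 encodes matrilin-2, an adaptor of filamentous networks. It had 9.82, 7.12, 9.39, 8.59 and 9.80 CPM in the cotadutide libraries, against 14.2, 12.8, 16.1 and 9.29 CPM in the vehicle libraries, with vehicle mouse 4 inside the cotadutide range. Its log2 fold change was -0.55 (SE 0.16, edgeR adjusted p = 0.0335). Ecm1, which encodes a glycoprotein that binds other matrix proteins and is the most abundant of these genes per kilobase, had 47.0, 26.9, 18.9, 26.7 and 43.2 CPM under cotadutide, against 48.9, 27.9, 35.9 and 37.0 CPM under vehicle. Its log2 fold change of -0.20 had a 95% interval of -0.76 to 0.36 (edgeR adjusted p = 0.596).

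Among the 9 matricellular genes, Tnc, Thbs4 and Sparc fell and 6 were not called, with a median log2 fold change of -0.54. Tnc encodes tenascin-C, a hexameric glycoprotein made at sites of injury and remodelling. Cotadutide mice 1 to 5 had 1.59, 1.67, 3.27, 1.43 and 2.19 CPM, and vehicle mice 1 to 4 had 6.57, 7.53, 6.07 and 3.73 CPM. All cotadutide libraries were below all vehicle libraries, the closest being cotadutide mouse 3 and vehicle mouse 4. Tnc was 2.99 times lower (log2 fold change -1.58, SE 0.27, 95% interval -2.16 to -1.0, edgeR adjusted p = 0.014). The gene (ENSMUSG00000028364) spans chr4:63959785-64047015 in the mm10 coordinates of the files, and 2.26% of its exon bases are shared with an antisense gene.

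Thbs4 encodes thrombospondin-4, a pentameric thrombospondin found in tendon and muscle. Its libraries stood at 7.66, 1.86, 1.64, 4.84 and 5.24 CPM in cotadutide mice, against 17.1, 6.79, 9.54 and 25.7 CPM in vehicle mice. Vehicle mouse 4 was the highest here, whereas it was the lowest vehicle mouse for 12 of the 14 members that fell, and cotadutide mouse 1 overlapped with vehicle mouse 2. The log2 fold change of -1.78 (SE 0.47, edgeR adjusted p = 0.0303) was -1.38 without vehicle mouse 4 and then not called. Thbs4 passed in 2 of the 9 fits that left out a mouse. Sparc encodes osteonectin, a collagen-binding glycoprotein. It had 1222, 943.6, 987.9, 985 and 1120.3 CPM under cotadutide, against 1798.5, 1597, 1607 and 1113 CPM under vehicle. For Sparc vehicle mouse 4 lay inside the cotadutide range while the other vehicle mice lay above it. Sparc was 1.45 times lower (log2 fold change -0.54, SE 0.14, edgeR adjusted p = 0.0251).

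Sparcl1, which encodes the SPARC relative hevin, had no overlap between groups (158.2 to 207.7 CPM in the cotadutide libraries, 210.7 to 249.8 CPM in the vehicle libraries) but a small difference (log2 fold change -0.28, edgeR adjusted p = 0.0606). The other thrombospondins, Thbs1, Thbs2 and Thbs3, had log2 fold changes of -0.86, -0.65 and -0.36 (edgeR adjusted p from 0.0836 to 0.344). Thbs1, an activator of latent TGF-beta, ranged from 8.21 to 22.1 CPM in the cotadutide libraries and from 13.0 to 31.5 CPM in the vehicle libraries. Thbs2 ranged from 3.77 to 15.7 CPM under cotadutide and from 11.6 to 18.4 CPM under vehicle, and Thbs3 from 2.88 to 6.19 CPM and from 3.70 to 7.74 CPM. In all 3 the groups overlapped, and cotadutide mouse 1 was at or near the top of its group. Tnxb, tenascin-X of loose connective tissue, ranged from 53.1 to 83.2 CPM in the cotadutide libraries and from 68.8 to 109.9 CPM in the vehicle libraries (log2 fold change -0.48, edgeR adjusted p = 0.066). Postn, which encodes periostin, a fibroblast product that binds collagen, averaged 79.0 ± 11.5 CPM in the cotadutide libraries and 79.0 ± 3.3 CPM in the vehicle libraries (SD). Its log2 fold change was 0.00 with a 95% interval of -0.23 to 0.23, and its sign turned under several other settings.

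Of the 6 small leucine-rich proteoglycans, Bgn and Prelp fell and 4 were not called, with a median log2 fold change of -0.63. Their summed CPM did not overlap between groups, from 538 to 758 in the cotadutide libraries and from 781 to 1069.6 in the vehicle libraries. Bgn encodes biglycan, which binds collagen and signals through Toll-like receptors when released. It had 69.8, 39.5, 44.8, 53.8 and 58.2 CPM in cotadutide mice 1 to 5, against 107.3, 87.6, 86.5 and 92.4 CPM in vehicle mice 1 to 4. The groups lay clear of each other and the vehicle mice were close together. Bgn was 1.76 times lower (log2 fold change -0.81, SE 0.15, 95% interval -1.13 to -0.49, edgeR adjusted p = 0.0147), and the gene (ENSMUSG00000031375) spans chrX:73483602-73495933.

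Prelp encodes prolargin, which anchors basement membranes to the collagen below. It had 349.8, 369.6, 328.7, 389.5 and 437.4 CPM in the cotadutide libraries, against 639.5, 538.5, 663 and 376 CPM in the vehicle libraries. Vehicle mouse 4 again lay inside the cotadutide range. Prelp was 1.48 times lower (log2 fold change -0.56, SE 0.15, edgeR adjusted p = 0.0304), and 9.68% of the exon bases of Prelp are shared with an antisense gene. Fmod and Lum, which encode fibromodulin and lumican and compete for a site on collagen, narrowly missed the threshold, with log2 fold changes of -1.12 (edgeR adjusted p = 0.0523) and -0.70 (0.0536). Fmod stayed between 0.783 and 1.65 CPM in the cotadutide libraries, against 1.47 to 4.32 CPM in the vehicle libraries, where mice 2 and 4 were high. Lum ranged from 13.0 to 27.8 CPM in the cotadutide libraries and from 23.2 to 38.8 CPM in the vehicle libraries. Ogn, which encodes osteoglycin, ranged from 12.5 to 21.6 CPM under cotadutide and from 12.5 to 29.9 CPM under vehicle and was not called (log2 fold change -0.37, edgeR adjusted p = 0.299).

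Dcn encodes decorin, the closest relative of biglycan among the members. It had 265, 166.8, 137.9, 161.4 and 215.9 CPM in the cotadutide libraries, against 256.1, 139, 220.9 and 251 CPM in the vehicle libraries. The groups overlapped throughout, and its log2 fold change of -0.19 had a 95% interval of -0.67 to 0.28 (edgeR adjusted p = 0.551). Bgn as a share of Bgn and Dcn CPM was 19.1 to 25% in the cotadutide libraries and 26.9 to 38.6% in the vehicle libraries, with no overlap. This share was chosen after the values were seen and was not tested.

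Vcan encodes versican, a large chondroitin sulfate proteoglycan that binds hyaluronan. It had 2.73, 1.54, 2.28, 2.37 and 2.00 CPM in the cotadutide libraries, against 6.42, 3.70, 3.71 and 2.32 CPM in the vehicle libraries. Vehicle mouse 1 was the highest by far and vehicle mouse 4 lay inside the cotadutide range. The log2 fold change of -0.89 (SE 0.27, edgeR adjusted p = 0.0449) was -0.57 without vehicle mouse 1 and then not called. Vcan passed in 2 of the 9 fits that left out a mouse, and limma-voom also ended its call.

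Of the 11 elastic fibre and microfibril genes tested, Fbn1 and Fbln2 fell and 9 were not called, with a median log2 fold change of -0.37. Fbn1 encodes fibrillin-1, the main microfibril protein. It had 24, 14.8, 18.5, 22.3 and 25 CPM in the cotadutide libraries, against 48.3, 29.9, 41.4 and 25.4 CPM in the vehicle libraries. The groups did not overlap, but vehicle mouse 4 and cotadutide mouse 5 were nearly level. The log2 fold change was -0.79 (SE 0.20, edgeR adjusted p = 0.0265), and 20.1% of the exon bases of Fbn1 are shared with an antisense gene, the largest share of any member. Fbln2 encodes fibulin-2, which binds fibrillin, fibronectin and laminins. It had 49.5, 31.6, 33.2, 38.2 and 40.3 CPM in the cotadutide libraries, against 62.2, 52.7, 61.4 and 48.5 CPM in the vehicle libraries, and the groups overlapped by a single pair of mice, cotadutide mouse 1 and vehicle mouse 4. Its log2 fold change was -0.54 (SE 0.13, edgeR adjusted p = 0.0219).

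Elastin itself was not called. Eln had 18.9 to 31.0 CPM in the cotadutide libraries and 23.8, 23.9, 24.5 and, in mouse 4, 40.7 CPM in the vehicle libraries. Its log2 fold change of -0.12 (95% interval -0.53 to 0.29) was 0.11 without vehicle mouse 4. The fibulins that bind elastin and its crosslinking enzyme, Fbln5 and Efemp2, had log2 fold changes of -0.23 and 0.12, with 14.9 to 20.1 CPM in the cotadutide libraries and 19.3 to 21.9 CPM in the vehicle libraries for Fbln5, and 7.47 to 10.2 CPM and 6.13 to 10.2 CPM for Efemp2. Efemp1, fibulin-3 and the most abundant of these genes per kilobase, had 24, 18.2, 18.1, 18.4 and 16.2 CPM under cotadutide, against 32.6, 19.4, 28.8 and 17.9 CPM under vehicle, with overlap (log2 fold change -0.37, edgeR adjusted p = 0.17). The microfibril-associated genes Mfap2, Mfap4 and Mfap5 had log2 fold changes of -0.40, -1.69 and -0.72 and were not called (edgeR adjusted p from 0.0917 to 0.259). Mfap4 was the most variable of the tested members in both groups by coefficient of variation, from 0.285 to 2.57 CPM in the cotadutide libraries and from 0.864 to 9.35 CPM in the vehicle libraries. Mfap5 ranged from 7.40 to 19.4 CPM under cotadutide and from 13.2 to 30.2 CPM under vehicle, and Mfap2 from 1.52 to 2.26 CPM and from 1.59 to 3.35 CPM. Both overlapped between groups. Emilin1, which lies between elastin and microfibrils, had 4.10 to 7.97 CPM in the cotadutide libraries and 6.64 to 9.71 CPM in the vehicle libraries (log2 fold change -0.37, edgeR adjusted p = 0.172). Fbln1, the fibulin-1 gene, had 3.98 to 8.90 CPM under cotadutide and 2.71 to 7.27 CPM under vehicle, and its log2 fold change of -0.11 had a 95% interval of -0.80 to 0.58. Fbn2, the fibrillin of developing tissue, was not tested, with 5 counts in all over the cotadutide libraries and 5 over the vehicle libraries. That is 0.0643 CPM in the cotadutide libraries (exact Poisson 95% interval 0.0209 to 0.150) and 0.0585 CPM in the vehicle libraries (0.0190 to 0.136), intervals that cover counting error only.

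**Figure D3:**
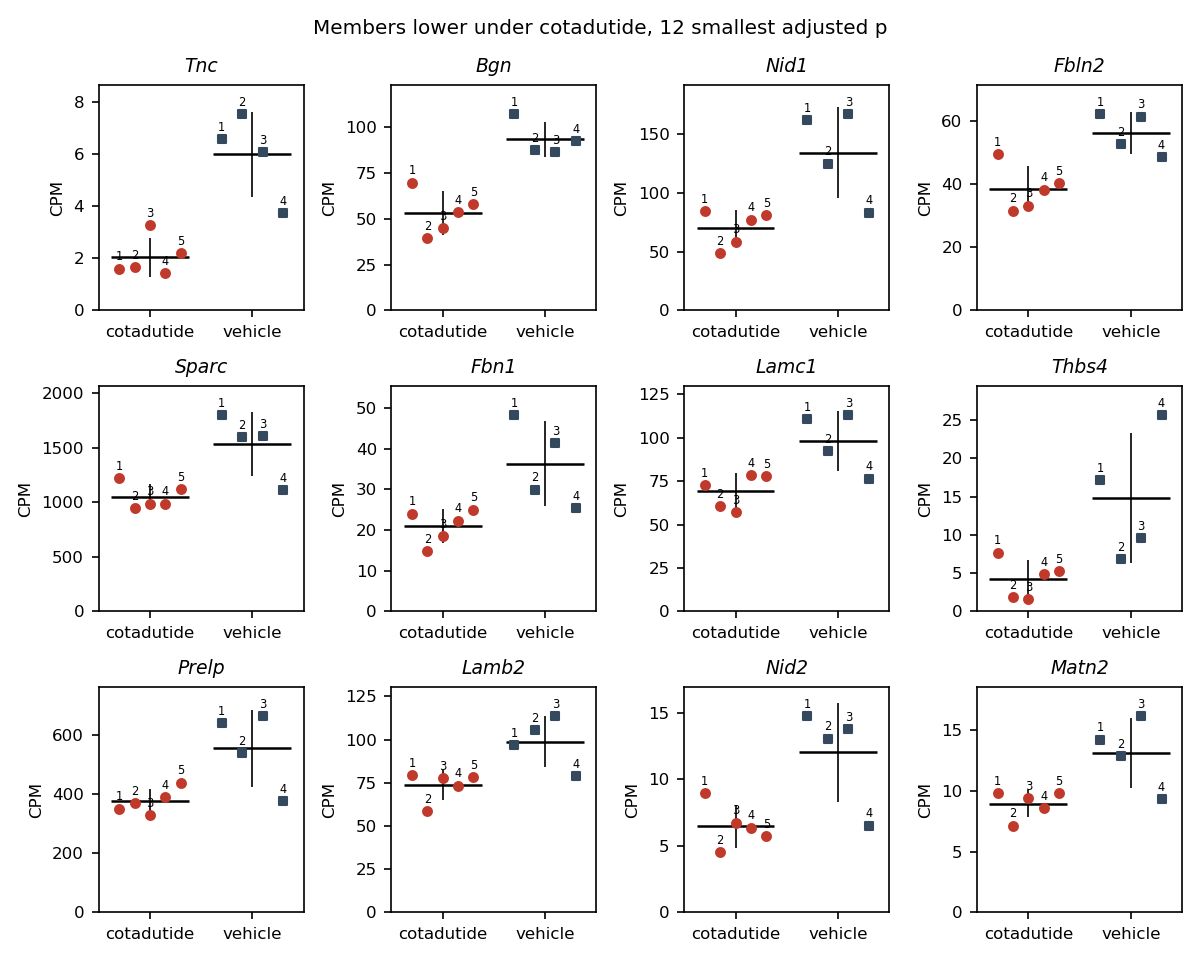
CPM by mouse for the 12 members with the smallest adjusted p among those that fell, with mouse numbers beside the points. Red circles are cotadutide mice, dark squares vehicle mice, long bars the mean and thin lines 1 SD. For Tnc the cotadutide mice lie from 1.43 to 3.27 CPM and the vehicle mice from 3.73 to 7.53 CPM, while in most other panels vehicle mouse 4 sits at the level of the cotadutide mice.

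Basement membrane genes moved in both directions: Nid1, Nid2, Lamc1 and Lamb2 fell, Lamb1 rose and 5 of the 10 were not called. Nid1 and Nid2 encode the nidogens, which bridge the laminin and collagen IV networks. Nid1, the most abundant member of the basement membrane per kilobase in the vehicle libraries, had 84.7, 48.6, 58.5, 77.1 and 81.0 CPM in cotadutide mice 1 to 5, against 161.8, 124.9, 167.1 and 83.2 CPM in vehicle mice 1 to 4. Vehicle mouse 4 alone overlapped with the cotadutide mice. The log2 fold change of Nid1 was -0.94 (SE 0.22, 95% interval -1.42 to -0.46, edgeR adjusted p = 0.0214), and the gene (ENSMUSG00000005397) spans chr13:13437602-13512275. Nid2 had 8.95, 4.55, 6.76, 6.39 and 5.71 CPM under cotadutide, against 14.8, 13.1, 13.8 and 6.54 CPM under vehicle, the same arrangement of mice. Its log2 fold change was -0.89 (SE 0.24, edgeR adjusted p = 0.0327), and 7.90% of its exon bases are shared with an antisense gene. Nid1 made 91.5 ± 1.49% of the CPM of the pair in the cotadutide libraries and 91.8 ± 0.974% in the vehicle libraries, with overlap between groups.

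Laminins are trimers of an alpha, a beta and a gamma chain. Lamc1 encodes the gamma chain of most laminins and had 72.9, 60.6, 57.1, 78.6 and 78.0 CPM in the cotadutide libraries, against 110.5, 92.3, 113.1 and 76.4 CPM in the vehicle libraries. Lamb2 encodes a beta chain of muscle, nerve and vessel laminins and had 79.5, 58.6, 77.8, 73.4 and 78.3 CPM in the cotadutide libraries, against 96.7, 105.6, 113.6 and 79.0 CPM in the vehicle libraries. Vehicle mouse 4 was level with the highest cotadutide mice for both genes. Their log2 fold changes were -0.50 for Lamc1 (SE 0.13, edgeR adjusted p = 0.0294) and -0.43 for Lamb2 (SE 0.12, edgeR adjusted p = 0.0324).

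Lamb1 encodes the other widely used beta chain and was the only member that rose. Singled out after its values were seen, it had 89.8, 99.5, 102.1, 109.8 and 74.4 CPM in the cotadutide libraries, against 67.2, 62.5, 79.1 and 82.9 CPM in the vehicle libraries. Cotadutide mouse 5 overlapped with vehicle mice 3 and 4. Lamb1 was 1.31-fold higher (log2 fold change 0.39, SE 0.12, 95% interval 0.12 to 0.65, edgeR adjusted p = 0.0476), close to the threshold, and it passed in 2 of the 9 fits that left out a mouse. Limma-voom, either other filter on low counts and totals without mitochondrial and muscle genes also ended its call. As a share of Lamb1 and Lamb2 CPM, a ratio chosen after the values were seen and not tested, Lamb1 made 53.0, 62.9, 56.8, 59.9 and 48.7% in the cotadutide libraries and 41, 37.2, 41 and 51.2% in the vehicle libraries. Vehicle mouse 4 again lay among the cotadutide mice.

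None of the alpha chains passed. Lama4, the alpha chain of endothelial and fat cell basement membranes, ranged from 59.4 to 78.3 CPM in the cotadutide libraries and from 49.4 to 70.5 CPM in the vehicle libraries (log2 fold change 0.18, 95% interval -0.06 to 0.42, edgeR adjusted p = 0.268). Lama2, the alpha chain of muscle and nerve, ranged from 8.82 to 17.0 CPM under cotadutide and from 13.1 to 23.0 CPM under vehicle (log2 fold change -0.50, edgeR adjusted p = 0.121). Lama5, of vessels and epithelia, ranged from 15.8 to 23.6 CPM under cotadutide and from 19.3 to 27.0 CPM under vehicle (log2 fold change -0.23, edgeR adjusted p = 0.236). The sign of the 3 alpha chains thus differed, with overlap between groups in each. The heparan sulfate proteoglycans Hspg2 (perlecan) and Agrn (agrin, known for clustering receptors at the nerve-muscle junction) had log2 fold changes of -0.28 (edgeR adjusted p = 0.091) and 0.15 (edgeR adjusted p = 0.232). Hspg2 ranged from 149.5 to 197.1 CPM in the cotadutide libraries and from 175.7 to 239.1 CPM in the vehicle libraries, and Agrn from 44.8 to 55.8 CPM and from 40.1 to 47.7 CPM. Agrn as a share of Agrn and Hspg2 CPM, also chosen after the values were seen, was 20.2 to 24% in the cotadutide libraries and 15.8 to 19.7% in the vehicle libraries.

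**Figure D4:**
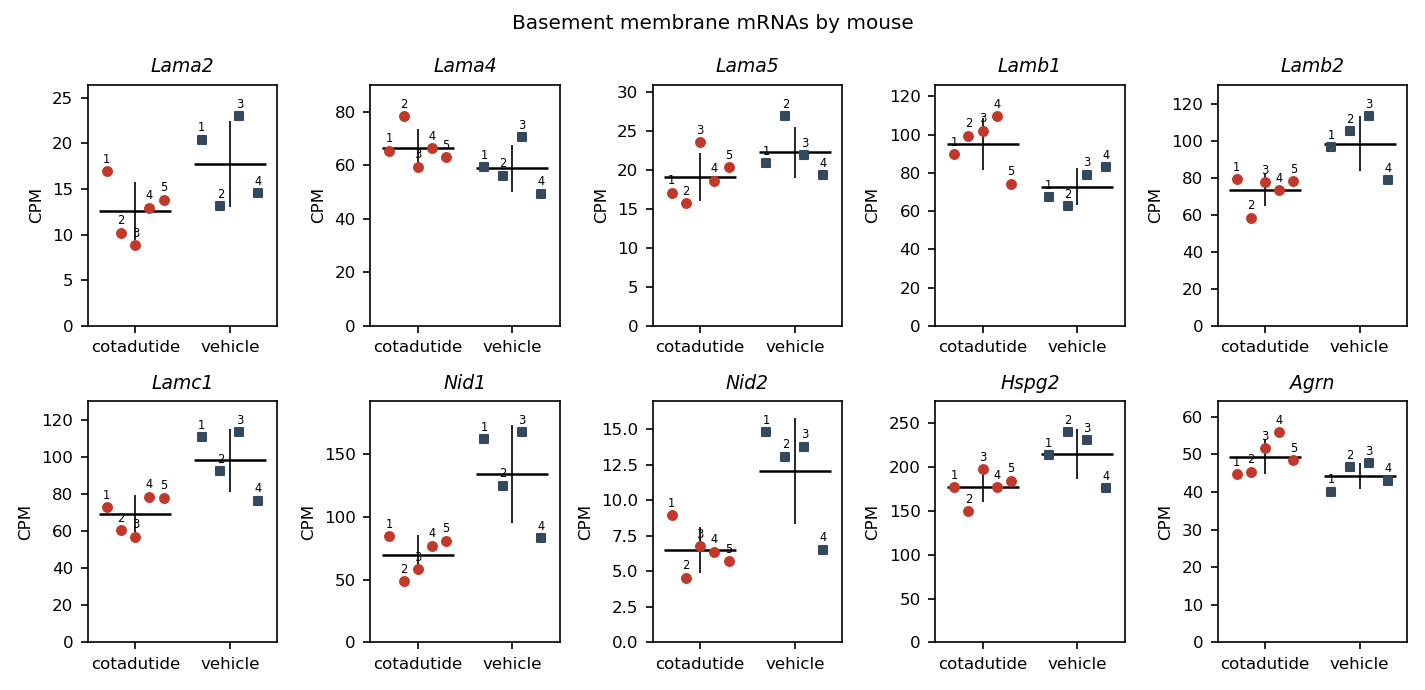
CPM by mouse for the 10 basement membrane members, with symbols as in the plot of the members that fell. Nid1, Nid2, Lamc1 and Lamb2 are lower on average in the cotadutide mice and Lamb1 is higher (74.4 to 109.8 CPM against 62.5 to 82.9 CPM), and the groups overlap in all 10 genes.

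High and low values of the members gathered in a few mice. Cotadutide mouse 1 had the highest value of its group in 25 of the 40 tested members, and cotadutide mice 2 and 3 had the lowest in 17 each. Among vehicle mice, mouse 1 was highest in 15 and mouse 3 in 13, and mouse 4 was lowest in 18 and mouse 2 in 15. With vehicle mouse 4 set aside, 16 of the 40 tested members had all cotadutide libraries below the other vehicle libraries. That stands beside 14.2% of all tested genes. The same held for 12 of the 14 members that fell, which were already picked as lower. Vehicle mouse 4 was set aside after its values were seen, and leaving out a library cannot lower such counts. Members' CPM varied by a median of 20.3% (coefficient of variation) within the cotadutide group and 23.4% within the vehicle group. The summed CPM of all members was 2933 ± 276 in the cotadutide libraries and 4002 ± 569 in the vehicle libraries, with overlap between cotadutide mouse 1 (3289) and vehicle mouse 4 (3246).

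Markers of other cell types moved with the groups as well. Of the 14 skeletal muscle markers, led by Myh4, Acta1 and Ckm, 7 fell (50%, beside 9.34% of all tested genes). The 14 summed to 5423 to 20262 CPM in the cotadutide libraries and 23246 to 49981 CPM in the vehicle libraries, with no overlap. Vehicle mouse 4 was the highest, and cotadutide mice 3 and 2 were the lowest. The muscle score of a library, the mean log2 CPM of these markers minus its mean over libraries, ran from -1.85 to 0.15 in the cotadutide mice and from 0.44 to 1.43 in the vehicle mice. When that score was added to the fit, no member and no gene at all was called, 13 members and 2214 genes had an unadjusted p under 0.05 by edgeR, and 30 of the 40 log2 fold changes were below zero with a median of -0.36. The muscle score does not overlap between groups, so muscle mRNA and treatment cannot be told apart in this design.

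The 12 fibroblast and progenitor markers, led by Gsn, Dpt and Ly6a, summed to 1351 to 2809 CPM in the cotadutide libraries and 1573 to 2303 CPM in the vehicle libraries. They overlapped, with nearly equal means (1965 CPM under cotadutide and 1991 CPM under vehicle). Of the 12, 1 (Cd34) fell (8.33%, beside 9.34% of all tested genes). Gsn made most of that sum, while 10 of the 12 log2 fold changes were below zero, with a median of -0.44. The 10 mural markers, led by Des, Rgs5 and Cspg4, summed to 794 to 1075 CPM in the cotadutide libraries and 1271 to 1648 CPM in the vehicle libraries, without overlap. Des, the desmin gene, is also a gene of striated muscle and made the largest part of that sum. Of the 10, Abcc9 fell (10%, beside 9.34% of all tested genes) and Cnn1 rose (beside 9.31%). The other 8 were not called, Des among them, and the median log2 fold change of the 10 was -0.11. The 12 macrophage markers, led by Lyz2, C1qa and C1qb, summed to 220.3 to 461 CPM in the cotadutide libraries and 347 to 591 CPM in the vehicle libraries, with overlap. Of these markers 5 fell (41.7%, beside 9.34% of all tested genes), and 11 log2 fold changes were below zero, with a median of -0.73. The 10 endothelial markers (Pecam1, Cdh5 and Kdr the most abundant) overlapped, at 719 to 954 CPM in the cotadutide libraries and 675 to 849 CPM in the vehicle libraries. Of them 1 (Emcn) rose, beside 9.31% of all tested genes.

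The 11 adipocyte markers, led by Fabp4, Ucp1 and Lpl, were higher in sum under cotadutide without overlap, at 31108 to 38363 CPM against 24245 to 28939 CPM. Of the 11, 4 rose, beside 9.31% of all tested genes. The 9 Schwann cell markers, led by S100b, Pmp22 and Mbp, summed to 322 to 365 CPM in the cotadutide libraries and 365.2 to 405 CPM in the vehicle libraries, just without overlap, and 1 of them had an unadjusted p under 0.05 by edgeR but no call. S100b made most of that sum, while 6 of the 9 log2 fold changes were above zero, with a median of 0.20. Mesothelial markers (Lrrn4, Krt19 and Upk3b the most abundant) and tendon and cartilage markers (Sox9, Scx and Cnmd) were near 0, summing to at most 7.69 and 8.13 CPM in any library. Lrrn4, the only mesothelial marker tested of 7, rose, and Scx, a transcription factor of tendon, fell as 1 of 3 tested of 7. No listed marker was without counts in all 9 libraries. The part of any of these cell types in the members' decreases was not tested.

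**Figure D5:**
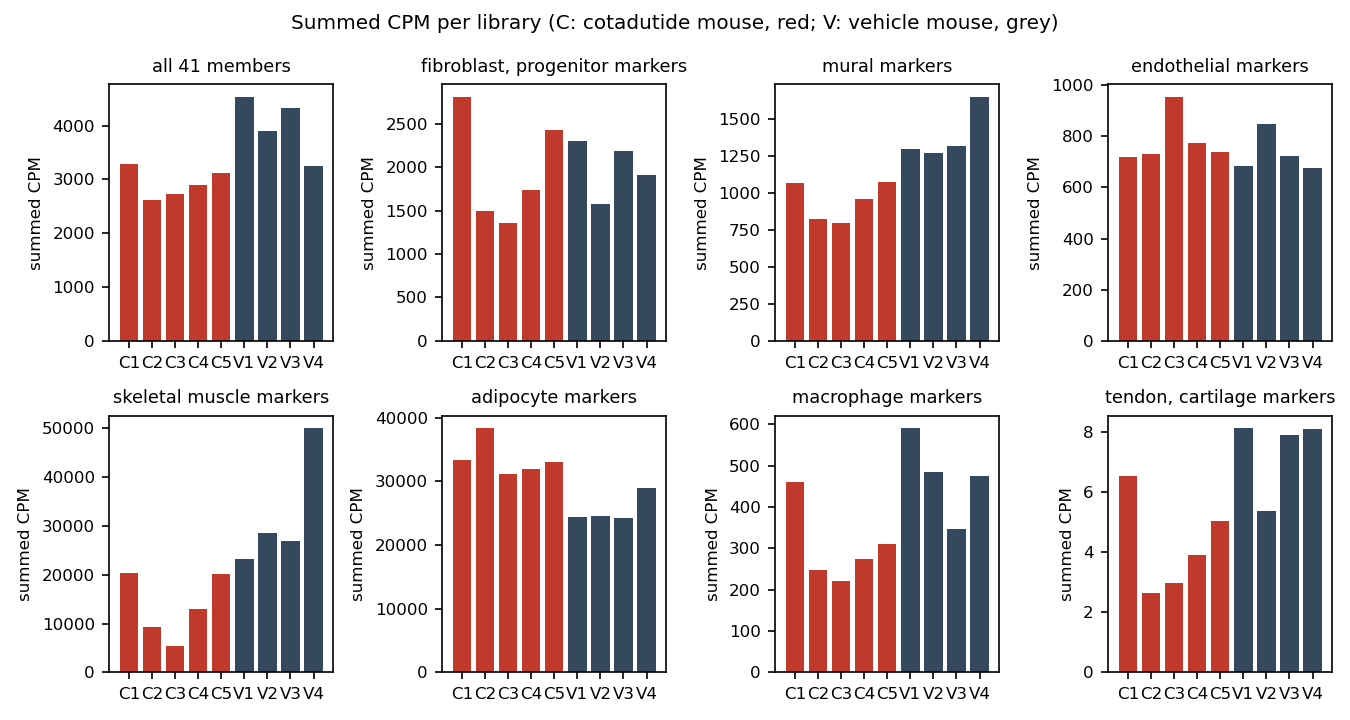
Summed CPM per mouse of all 41 members and of the marker lists of 7 cell types, with bars from 0. C and red mark cotadutide mice, V and grey vehicle mice. The members' sums overlap only at C1 (3289) and V4 (3246), the muscle sums run from 5423 to 20262 in cotadutide mice and from 23246 to 49981 in vehicle mice, and the fibroblast sums overlap widely.

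Genes that work beside the members were counted in the same fit. Of 63 other matrix glycoproteins and proteoglycans, 50 were tested, with a median log2 fold change of -0.22. Of these, 10 fell (20%, beside 9.34% of all tested genes) and 2 rose (beside 9.31% of all tested genes). The 3 with the smallest adjusted p were Ccn2, the connective tissue growth factor, which fell to 5.62 to 8.09 CPM in the cotadutide libraries, against 13.2 to 19.2 CPM in the vehicle libraries (log2 fold change -1.26, edgeR adjusted p = 0.00685), Svep1, a large adhesion protein, which rose (0.95, edgeR adjusted p = 0.0122), and Aspn, the proteoglycan asporin, which fell (-0.73, edgeR adjusted p = 0.0133). Of 37 matrix receptors tested of 39, 10 fell (27%, beside 9.34% of all tested genes) and 27 were not called. In 10 every cotadutide library was below every vehicle library, beside 7.79% of all tested genes. The summed CPM of the receptors was nearly equal, at 3356 ± 233 in the cotadutide libraries and 3367 ± 149 in the vehicle libraries (SD). Receptors that fell included Cd44, a hyaluronan receptor (log2 fold change -1.18, edgeR adjusted p = 0.0163), the collagen receptor Ddr1 (-0.81, edgeR adjusted p = 0.0167) and Itga5, the alpha chain of a fibronectin receptor (-0.62, edgeR adjusted p = 0.0177). Of 36 genes of glycosaminoglycan synthesis tested of 39, 5 fell (13.9%, beside 9.34% of all tested genes) and 3 rose (beside 9.31%). Among them were Csgalnact2, which starts chondroitin chains and fell (-0.69, edgeR adjusted p = 0.0133), and the sulfotransferase Chst12 and the xylosyltransferase Xylt2, which rose (0.53 and 0.41, edgeR adjusted p = 0.014 and 0.019). Without vehicle mouse 1 or vehicle mouse 2 no receptor was called, and without cotadutide mouse 2 or vehicle mouse 3 there were 4 calls, all lower.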

How the data were processed

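Each deposited file held the authors' raw counts of reads per Ensembl gene for 1 mouse, whole numbers with a different total in each library. Per the labels' protocols, RNA was taken from the homogenate after removal of its fat layer, and polyadenylated RNA was sequenced, so levels refer to that RNA only. Per the submitters' processing notes the tools were bcl2fastq 2.17, Trimmomatic 0.36, STAR 2.5.2b and featureCounts of Subread 1.5.2, with the mouse build mm10. Neither the counting's use of strand nor the release of the gene models is given in the sources used here, so reads of a member and of an overlapping antisense gene could not be told apart. Symbols were matched to 48970 of the 49315 identifiers, and 345 had no match. The length column of the files equals the union of the listed exons in all 49315 genes, and levels per kilobase use it.

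Counts were filtered with filterByExpr, which left 14747 genes with 99.87% of the counts, scaled with TMM (factors from 0.915 to 1.06) and tested with edgeR 4.0.16 in R 4.3.3 (glmQLFit with robust dispersion, glmQLFTest) on all 9 libraries, with group as the only term and Benjamini-Hochberg adjustment over all genes tested. The standard error is the size of the log2 fold change over the square root of F, and intervals are at 95%. The common biological coefficient of variation was 17.0%. Each library was counted as 1 replicate, as any 2 libraries of the same group differed by more than counting noise (chi-square over its degrees of freedom of at least 11.5). Alternatives used limma-voom of limma 3.58.1, DESeq2 1.42.0, other scalings and filters, each library left out, the mouse number as a block, and a skeletal muscle score. Same-numbered mice are separate animals, and the correlations of their deviations ran from -0.0400 to 0.135, so the numbers do not pair them.

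The 41 members and the other gene lists were chosen with earlier results of these data known. All members are named. Values of every library are given for the 12 called members with the smallest adjusted p and for the most abundant member per kilobase of each role. Those of Fn1, Dcn and Lamb1 were added after they were seen. From each list of other matrix genes the 3 with the smallest adjusted p are named, and from each marker list the 3 most abundant. Promoters are from RefSeq, GRCm38.p6.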

Additional observations from a re-analysis of the deposited data

Results flagged for a closer look

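Values far from the rest of their own group were looked for in 116 groups of 4 or 5 libraries, of which chance alone marks about 1 in 20, or 5.8, and 7 were found. Eln, the elastin gene, stood at 40.7 CPM in vehicle mouse 4, above the 23.8 to 24.5 CPM of its group mates. Fbln1, the fibulin-1 gene, stood at 2.71 CPM in vehicle mouse 2, against 7.02 to 7.27 CPM in the others. The matrix receptors summed to 3754 CPM in cotadutide mouse 4, against 3188 to 3350.2 CPM in the other cotadutide mice. The endothelial markers summed to 954 CPM in cotadutide mouse 3, against 719 to 773 CPM. Vehicle mouse 4 had the highest sum of mural markers, 1648 CPM where the others had 1271 to 1317 CPM, and of adipocyte markers, 28939 CPM where the others had 24245 to 24649 CPM. The tendon and cartilage markers summed to 5.39 CPM in vehicle mouse 2, against 7.89 to 8.13 CPM in the others.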

How the results depend on the processing

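The median log2 fold change of the tested members lay between -0.56 and -0.36 under the 18 alternatives, against -0.49. Both other scaling factors in edgeR and DESeq2 kept all 15 member calls. DESeq2 called 5 more, and upper quartile factors 1 more. Of all tested genes, DESeq2 called 23%, edgeR with DESeq2 size factors 18.2% and edgeR with upper quartile factors 19.7%, against 18.7%. The stricter filter kept 14 of the 15 and limma-voom 13, with 4 and 1 newly called. Of all tested genes they called 20.8% and 20.3%. With no filter on low counts 9 were kept and 2 newly called, beside 7.57% of 28583 genes called. Fn1, Thbs4 and Fbn1 were among those lost. The single member called higher, Lamb1, gave a count of 0 with limma-voom, with no filter on low counts, with the stricter filter, with totals without mitochondrial and muscle genes and with the muscle score as a covariate. With that covariate the counts of members lower, of all genes higher and lower, and of each list of other matrix genes, receptors and glycosaminoglycan synthesis genes were also 0. Without a filter 900 genes were higher. With the mouse number as a replicate block, which does not pair these animals, 1 member was called higher and 8 lower, of all genes 516 higher and 768 lower, of other matrix genes 1 higher and 11 lower, of receptors 9 lower, and of glycosaminoglycan genes 2 higher and 1 lower.

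Leaving out each library in turn gave 0 to 1 members higher and 1 to 20 lower, and 42 to 2116 genes higher and 92 to 1724 lower. Other matrix genes gave 1 to 2 higher and 3 to 11 lower, receptors 0 to 3 higher and 0 to 12 lower, and glycosaminoglycan genes 0 to 4 higher and 1 to 10 lower.

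No called member turned its direction under any of the 18 alternatives. With the muscle score the log2 fold changes of uncalled members turned to 0.39 (Ecm1), 0.42 (Thbs2), 0.28 (Dcn), 0.27 (Eln), 0.40 (Fbln1) and 0.16 (Mfap4), and that of Postn to -0.27. Postn, near 0, also turned to -0.011 (limma-voom), -0.046 (no filter), -0.029 (stricter filter) and -0.0046 (totals without mitochondrial and muscle genes), and ran from -0.083 to 0.052 with a library left out. The range was -0.22 to 0.11 for Eln and -0.39 to 0.0005 for Fbln1. The cause was not tested. At this depth Fbn2, with 5 counts per group, could not be compared.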

Other observations

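The matrix receptors held several integrin chains that fell, chosen here after their values were seen. Of the 37 receptors tested, 27 were not called and 10 had log2 fold changes above zero, up to 1.00. Itgb1, the beta chain shared by most matrix-binding integrins, had 154 to 185 CPM in the cotadutide libraries and 192 to 238 CPM in the vehicle libraries (log2 fold change -0.39, edgeR adjusted p = 0.0207). The alpha chain Itgav, which pairs with Itgb5 and Itgb6, had 12 to 17 CPM under cotadutide and 17.5 to 20.1 CPM under vehicle (log2 fold change -0.36, edgeR adjusted p = 0.0359). Its partner Itgb5 had a log2 fold change of -0.38 and Itgb6 one of -1.13 (edgeR adjusted p = 0.0289 and 0.0206). None of these was called without vehicle mouse 1 or without vehicle mouse 2. Musk, the kinase through which agrin acts at the nerve-muscle junction, fell as well (log2 fold change -1.49, edgeR adjusted p = 0.0188), at 0.128 to 0.381 CPM in the cotadutide libraries and 0.576 to 0.918 CPM in the vehicle libraries.

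The 3 listed genes of the CCN family of matricellular proteins, Ccn1, Ccn2 and Ccn5, fell, also chosen after their values were seen. Ccn1 had 51.9 to 144 CPM in the cotadutide libraries and 80.9 to 279 CPM in the vehicle libraries, with overlap (log2 fold change -1.22, edgeR adjusted p = 0.0396). Ccn5 had 0.640 to 2.26 CPM under cotadutide and 2.92 to 3.66 CPM under vehicle (log2 fold change -1.28, edgeR adjusted p = 0.0235). Cilp, the cartilage intermediate layer protein, fell (log2 fold change -1.52, edgeR adjusted p = 0.0431) and, like Thbs4, was highest in vehicle mouse 4.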
